A study of Mus musculus with 10 samples.

Results

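A set of 10 genes that respond to the transcription factor NF-kB was followed in cultured mouse hepatocytes, the parenchymal cells of the liver. They were Nfkbia, Nfkbiz, Tnfaip3, Relb, Nfkb2, Birc3, Tlr2, Sod2, Icam1 and Vcam1, chosen by their gene symbols, and they made up 10 of the 56748 genes in the deposited tables. These genes and the gene lists used further on were chosen with earlier results of these data known. Their shares of called or separate genes are therefore descriptions, not independent of the data. All 10 passed the filter on low counts, which 14183 genes passed. The RNA came from primary hepatocytes of wild-type mice that had been kept overnight in medium conditioned by adipocytes. Those adipocytes had been differentiated in culture from stromal vascular cells of inguinal fat, taken from male mice on an obesogenic diet for 6 months (n = 3 in the labels). The fat donors were Mttp f/f mice in one group (Mttp_flox_CM, 5 libraries) and A-Mttp-/- mice, which lack Mttp in adipose tissue, in the other (Mttp_KO_CM, 5 libraries). The protein made from Mttp, microsomal triglyceride transfer protein, loads lipid onto apolipoprotein B. The hepatocytes themselves carried no deletion in either group. The differentiation mixture for both was IBMX, insulin, dexamethasone, indomethacin and rosiglitazone, followed by insulin alone and then by medium with serum, and both kinds of adipocyte were starved overnight. The labels name neither the promoter behind the adipose deletion nor the number of hepatocyte donors. Because the deletion lies in the fat donors, hepatocyte Mttp is no check of the labels. No group without adipocyte medium is among the samples, so the comparison is between the 2 media. Depth was alike, with totals of 14199798 to 15950530 counts in the Mttp_flox_CM libraries and 14283517 to 17178131 in the Mttp_KO_CM libraries.

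NF-kB dimers are held in the cytoplasm by IkB proteins, among them IkB-alpha, the product of Nfkbia. Signals from receptors such as Toll-like receptors or the receptors for TNF and interleukin 1 lead to phosphorylation and loss of IkB, and the freed dimers enter the nucleus. They then induce their own brakes, including Nfkbia itself and the ubiquitin-editing enzyme A20, encoded by Tnfaip3. A slower noncanonical branch processes p100, the product of Nfkb2, to p52, which pairs with RelB. In liver the pathway is active in hepatocytes and in the sinusoidal endothelial cells, Kupffer cells and stellate cells around them, and on endothelium it raises the adhesion molecules ICAM-1 and VCAM-1, which hold leukocytes.

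Promoter windows were examined for the letters that NF-kB dimers recognise. The windows had not been used to choose the genes. But the genes were listed as responding to NF-kB, so the share of matches among them is not independent of that choice. RefSeq promoter windows of 300 bases, running from 250 before to 50 after each transcription start on build GRCm38.p6, were found for 7 of the 10 genes. Windows for Nfkbiz, Relb and Vcam1 were not used here. The NF-kB consensus decamer was searched on both strands, and overlapping matches were counted as they fell. At least 1 match was present for 5 of the 7 genes, which is 71.4%. Of all 27025 genes with such windows 9.55% held a match, of the 10376 with windows that were also tested for expression 12.0%, and of the 97 other pathway genes with a window 27.8%. Over all 32851 windows the share was 8.46%. These 5 windows are shown because they carry the decamer in genes that went up, went down or did not pass the test, with the matched bases in capitals and each window written 5′ to 3′ on the strand of its gene.
Nfkbia, chr12:55492598-55492897, minus strand: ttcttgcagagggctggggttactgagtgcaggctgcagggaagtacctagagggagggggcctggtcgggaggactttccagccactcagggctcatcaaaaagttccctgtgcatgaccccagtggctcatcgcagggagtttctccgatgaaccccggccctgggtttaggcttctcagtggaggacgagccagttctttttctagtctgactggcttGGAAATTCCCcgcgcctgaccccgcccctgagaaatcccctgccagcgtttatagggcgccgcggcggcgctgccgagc
Tnfaip3, chr10:19015361-19015660, minus strand: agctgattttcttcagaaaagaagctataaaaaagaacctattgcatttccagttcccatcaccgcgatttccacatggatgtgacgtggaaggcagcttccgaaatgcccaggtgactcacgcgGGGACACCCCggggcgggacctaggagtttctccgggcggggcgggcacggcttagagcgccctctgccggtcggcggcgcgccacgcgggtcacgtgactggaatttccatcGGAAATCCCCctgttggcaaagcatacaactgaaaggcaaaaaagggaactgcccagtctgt
Sod2, chr17:13007589-13007888, plus strand: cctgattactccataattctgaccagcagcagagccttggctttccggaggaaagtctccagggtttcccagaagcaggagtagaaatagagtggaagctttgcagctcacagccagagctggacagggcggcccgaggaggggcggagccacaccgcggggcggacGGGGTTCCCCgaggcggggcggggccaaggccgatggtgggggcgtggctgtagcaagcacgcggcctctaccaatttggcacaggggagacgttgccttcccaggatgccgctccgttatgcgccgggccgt
Nfkb2, chr19:46304487-46304786, plus strand: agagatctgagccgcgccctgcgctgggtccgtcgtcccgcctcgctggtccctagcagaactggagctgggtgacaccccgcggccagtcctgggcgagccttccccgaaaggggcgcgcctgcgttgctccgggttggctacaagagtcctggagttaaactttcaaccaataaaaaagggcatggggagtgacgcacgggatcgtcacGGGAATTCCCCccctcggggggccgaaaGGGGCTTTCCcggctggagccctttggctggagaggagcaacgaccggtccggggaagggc
Tlr2, chr3:83841559-83841858, minus strand: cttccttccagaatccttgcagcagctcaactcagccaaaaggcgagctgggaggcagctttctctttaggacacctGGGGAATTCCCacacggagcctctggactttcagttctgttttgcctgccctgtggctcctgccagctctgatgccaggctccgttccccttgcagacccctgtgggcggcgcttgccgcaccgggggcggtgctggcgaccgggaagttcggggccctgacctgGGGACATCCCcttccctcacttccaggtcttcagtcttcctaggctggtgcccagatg

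In the Nfkbia window the match read GGAAATTCCC and began 29 bases before the start. The Tnfaip3 window held GGGACACCCC and GGAAATCCCC, the second beginning 12 bases before the start. Sod2 had the single match GGGGTTCCCC. Nfkb2 and Tlr2 shared the palindrome GGGAATTCCC, which began 39 bases before the start in Nfkb2 and 172 bases before it in Tlr2. Of the further windows in RefSeq, both of Nfkb2 held a match and the second window of Tnfaip3 held none. No match lay in the windows of Icam1 and Birc3, which says only that these letters were not found within those 300 bases. The matches thus stood in front of Tnfaip3 and Sod2, which were higher with knockout medium, of Nfkb2 and Tlr2, which were lower, and of Nfkbia, which did not pass the test.

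The 10 genes did not move one way. With knockout medium Nfkbiz, Tnfaip3 and Sod2 rose and Vcam1, Birc3, Tlr2, Relb and Nfkb2 fell, while Nfkbia and Icam1 did not pass the test (edgeR's quasi-likelihood test, Benjamini-Hochberg adjusted p under 0.05 over all genes tested). Among all genes tested 18.2% were called higher and 18.1% lower, against 3 and 5 of these 10. The level of each gene is given as CPM, read counts scaled to a common library size with TMM factors, and fold changes as log2 of Mttp_KO_CM over Mttp_flox_CM. The groups were fully separate for 7 of the 10 genes, where 25.7% of all genes tested were separate. The median log2 change was -0.19 over the 10 genes and 0.00 over all genes tested, and the median size of a change, sign ignored, was 0.28 and 0.14. Changes were small apart from those of Vcam1 and Nfkbiz, and the other 8 lay between -0.30 and 0.28 on the log2 scale. With library size alone in place of TMM, 38.1% of all called genes were higher where TMM gave 50.1%, and 3 of these genes were higher and 6 lower. No label says whether the 5 libraries of a medium stem from different hepatocyte cultures or mice, so p-values reflect only how much these libraries scatter, which could be technical scatter. The labels give n = 3 for the fat donors, so the 5 libraries of a medium cannot each stand for a separate donor. The p-values therefore do not treat the fat donor as the unit.

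**Figure D1:**
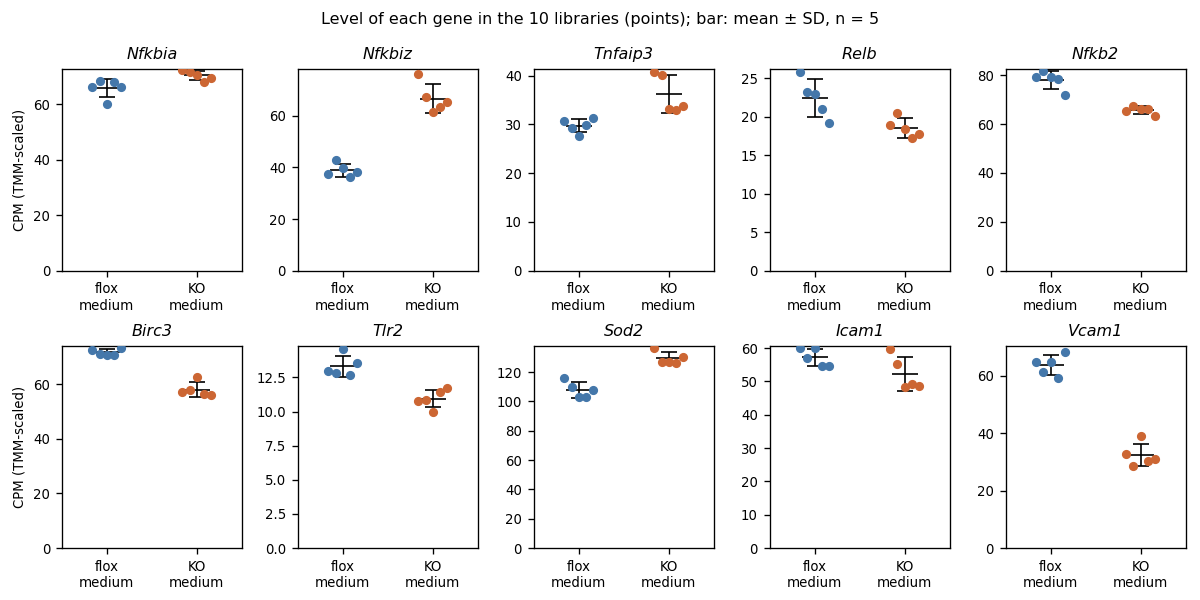
CPM of each of the 10 genes (vertical axis, from 0) in the 5 libraries with flox medium and the 5 with KO medium (points), with the mean and SD as black bars. Vcam1 is lower and Nfkbiz higher in every KO medium library, with wide gaps, whereas the points of Icam1, Nfkbia and Relb overlap between the media.

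Nfkbiz and Tnfaip3 rose, and Nfkbia, the classical feedback inhibitor, did not pass the test. Nfkbiz (ENSMUSG00000035356, chromosome 16 from 55631738 to 55659262, minus strand, GRCm39) encodes IkB-zeta, a nuclear IkB protein that modulates transcription of secondary NF-kB targets. Its level was 37.5, 42.8, 40.0, 36.2 and 38.2 CPM in the Mttp_flox_CM libraries (replicates 1 to 4 and the 1 library whose number no label holds, called unnumbered, always in this order) and 76.2, 67.2, 61.4, 63.4 and 65.2 CPM in the Mttp_KO_CM libraries. Every Mttp_KO_CM library thus lay well above every Mttp_flox_CM library, with replicate 1 of Mttp_KO_CM the highest. The rise was 1.71-fold (log2 change 0.77 with SE 0.056 and adjusted p = 3.4e-11 by edgeR), and a smaller p was found for 1.96% of genes tested.

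Tnfaip3 (ENSMUSG00000019850, chromosome 10 from 18876658 to 18891405, minus strand) encodes A20, which edits ubiquitin chains on signalling proteins upstream of the IkB kinase. It was at 30.7, 29.3, 27.7, 29.9 and 31.3 CPM with flox medium and at 40.7, 40.1, 33.2, 33.0 and 33.8 CPM with knockout medium. The groups did not overlap, but the Mttp_KO_CM libraries fell into a pair, replicates 1 and 2, at 40.1 CPM or more and the other 3 at 33.8 or less. The rise was 1.21-fold (log2 change 0.28 with SE 0.062 and adjusted p = 7.9e-04 by edgeR). Nfkbia (ENSMUSG00000021025, chromosome 12 from 55536195 to 55539432, minus strand) lay between 60.3 and 68.3 CPM in Mttp_flox_CM, where replicate 3 was the low one, and between 68.0 and 72.2 CPM in Mttp_KO_CM. These ranges overlapped, since 68.0 in Mttp_KO_CM replicate 4 lay below 68.3 in Mttp_flox_CM replicate 2. The difference did not pass the test (log2 change 0.10 with SE 0.041 and adjusted p = 0.063 by edgeR), with a 95% confidence interval 0.01 to 0.18. Against Nfkbia in the same library, Nfkbiz stood at 0.593 ± 0.0519 in Mttp_flox_CM and 0.946 ± 0.0676 in Mttp_KO_CM (SD, n = 5 each). The ratio of Tnfaip3 to Nfkbia was 0.453 ± 0.0181 in Mttp_flox_CM and 0.513 ± 0.0448 in Mttp_KO_CM (SD, n = 5 each). These 2 ratios, and the 6 others given further on, were chosen after the values were seen and are given as descriptions. An exact permutation test over libraries was run on them, but because of that choice its p-values are not used.

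Both subunits of the noncanonical branch fell by modest amounts. Nfkb2 (ENSMUSG00000025225, chromosome 19 from 46292759 to 46300824, plus strand) was at 79.3, 81.5, 79.2, 78.3 and 72.0 CPM with flox medium and at 65.4, 67.4, 66.0, 66.2 and 63.1 CPM with knockout medium. The Mttp_KO_CM values were tightly grouped and all lay below the lowest Mttp_flox_CM library, which was the unnumbered one. The mean went from 78.0 ± 3.59 to 65.6 ± 1.58 CPM (log2 change -0.25 with SE 0.040 and adjusted p = 1.9e-05 by edgeR). Nfkb2 overlaps Psd and 4833438C02Rik on the opposite strand, whose counts came to 4.97% and 1.85% of its own, and reads of overlapping genes cannot be told apart where strand is not used. Relb (ENSMUSG00000002983, chromosome 7 from 19340142 to 19363363, minus strand), the partner of p52, lay between 19.2 and 25.8 CPM in Mttp_flox_CM and between 17.2 and 20.5 CPM in Mttp_KO_CM. It fell (log2 change -0.27 with SE 0.073 and adjusted p = 0.0045 by edgeR) although the ranges overlapped, the unnumbered Mttp_flox_CM library lying within the span of the other group.

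Of the subunits outside the set, Nfkb1 and Rela also fell. Nfkb1, the gene of p105 and p50, fell from 99.8 ± 3.88 to 87.0 ± 2.74 CPM (log2 change -0.20 with SE 0.037 and adjusted p = 1.3e-04 by edgeR). Rela, the main activating subunit, fell slightly, from 125 ± 5.21 to 117 ± 3.26 CPM (log2 change -0.10 with SE 0.035 and adjusted p = 0.034 by edgeR), with overlapping groups, and its adjusted p rose to 0.095, 0.070 and 0.090 without Mttp_flox_CM replicate 1, Mttp_flox_CM replicate 2 or Mttp_KO_CM replicate 4. Rel, the subunit of lymphoid cells, was at 14.7 ± 1.06 CPM in Mttp_flox_CM and 13.5 ± 1.15 in Mttp_KO_CM and did not pass (log2 change -0.13 with SE 0.080 and adjusted p = 0.24 by edgeR). The ratio of Relb to Rela was 0.179 ± 0.0135 in Mttp_flox_CM and 0.159 ± 0.00760 in Mttp_KO_CM (SD, n = 5 each). That of Nfkb2 to Nfkb1 was 0.782 ± 0.0227 in Mttp_flox_CM and 0.755 ± 0.0238 in Mttp_KO_CM (SD, n = 5 each). Map3k14, the kinase NIK that starts p100 processing, fell from 13.5 ± 0.921 to 11.4 ± 0.501 CPM (log2 change -0.25 with SE 0.079 and adjusted p = 0.015 by edgeR), but not with replicate number as a block (adjusted p = 0.065). Traf3, which keeps that kinase low, was at 60.2 ± 2.36 CPM in Mttp_flox_CM and 59.3 ± 2.30 in Mttp_KO_CM (log2 change -0.02 with SE 0.042 and adjusted p = 0.71 by edgeR).

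The 2 survival genes moved in opposite directions. Sod2 (ENSMUSG00000006818, chromosome 17 from 13225733 to 13258950, plus strand), which encodes the manganese superoxide dismutase of mitochondria, was at 116, 109, 103, 103 and 108 CPM with flox medium and at 136, 127, 127, 126 and 130.0 CPM with knockout medium. All Mttp_KO_CM libraries lay above all Mttp_flox_CM libraries, and the rise was 1.20-fold (log2 change 0.26 with SE 0.037 and adjusted p = 2.9e-06 by edgeR). Its cytosolic counterpart Sod1 rose, from 275 ± 15.6 to 324 ± 11.9 CPM (log2 change 0.23 with SE 0.035 and adjusted p = 7.7e-06 by edgeR), and catalase, Cat, rose from 939 ± 23.5 to 1018 ± 10.7 CPM (log2 change 0.12 with SE 0.024 and adjusted p = 3.4e-04 by edgeR). Sod3, the extracellular enzyme, was barely present at 1.64 ± 0.796 CPM in Mttp_flox_CM and 0.983 ± 0.219 in Mttp_KO_CM, and its fall (log2 change -0.75 with SE 0.29 and adjusted p = 0.045 by edgeR) did not pass under 10 of 20 alternatives, with log2 at -0.40 (adjusted p = 0.27) without Mttp_flox_CM replicate 3. Birc3 (ENSMUSG00000032000, chromosome 9 from 7848700 to 7873187, minus strand) encodes cIAP2, a ubiquitin ligase that protects cells from TNF-induced death. It was at 72.5, 71.2, 70.9, 70.8 and 73.1 CPM with flox medium and at 57.0, 57.7, 62.7, 56.4 and 56.0 CPM with knockout medium. The groups were separate, with Mttp_KO_CM replicate 3 above the other libraries of its group, and the fall was 1.24-fold (log2 change -0.30 with SE 0.040 and adjusted p = 1.2e-06 by edgeR). Birc2, which encodes the related cIAP1, fell by nearly the same amount, from 43.5 ± 2.17 to 35.2 ± 1.38 CPM (log2 change -0.30 with SE 0.047 and adjusted p = 1.2e-05 by edgeR).

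Tlr2, the one receptor in the set, fell from a low level. Tlr2 (ENSMUSG00000027995, chromosome 3 from 83743579 to 83749074, minus strand) binds bacterial lipopeptides together with Tlr1 or Tlr6. Its libraries lay between 12.7 and 14.6 CPM with flox medium and between 10.0 and 11.7 CPM with knockout medium, without overlap (log2 change -0.29 with SE 0.080 and adjusted p = 0.0065 by edgeR). Tlr1 was lower still and fell, from 2.13 ± 0.449 to 1.08 ± 0.239 CPM (log2 change -0.96 with SE 0.23 and adjusted p = 0.0017 by edgeR), whereas Tlr6 was at 1.65 ± 0.612 CPM in Mttp_flox_CM and 1.12 ± 0.280 in Mttp_KO_CM and did not pass (log2 change -0.55 with SE 0.27 and adjusted p = 0.12 by edgeR). Tlr4, the receptor for lipopolysaccharide, was at 21.5 ± 2.92 CPM in Mttp_flox_CM and 21.0 ± 1.25 in Mttp_KO_CM (log2 change -0.03 with SE 0.076 and adjusted p = 0.78 by edgeR). Its co-receptor Cd14 rose from 171 ± 2.66 to 238 ± 7.68 CPM (log2 change 0.48 with SE 0.029 and adjusted p = 1.5e-12 by edgeR).

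Of the 2 adhesion molecules, Vcam1 fell the most of the 10 genes and Icam1 did not pass the test. Vcam1 (ENSMUSG00000027962, chromosome 3 from 115903598 to 115923337, minus strand), the ligand of the integrin alpha4 beta1, was at 64.9, 61.5, 64.7, 59.4 and 68.4 CPM with flox medium. With knockout medium it was at 32.8, 28.8, 39.0, 30.4 and 31.1 CPM. The highest Mttp_KO_CM library, replicate 3, lay far below the lowest Mttp_flox_CM library. The fall was 1.96-fold (log2 change -0.97 with SE 0.061 and adjusted p = 3.0e-12 by edgeR), and a smaller p was found for 1.53% of genes tested. Icam1 (ENSMUSG00000037405, chromosome 9 from 20927281 to 20940113, plus strand), the ligand of the integrins LFA-1 and Mac-1, was at 59.9, 56.9, 60.0, 54.6 and 54.5 CPM with flox medium and at 59.7, 55.2, 48.2, 49.2 and 48.6 CPM with knockout medium. Replicates 1 and 2 of Mttp_KO_CM lay inside the range of the Mttp_flox_CM libraries and the other 3 lay below all of them. Icam1 did not pass the test (log2 change -0.13 with SE 0.054 and adjusted p = 0.061 by edgeR, 95% confidence interval -0.24 to -0.02). Without Mttp_KO_CM replicate 1 it did (log2 -0.19, adjusted p = 0.005), and so it did under 6 of the 20 alternatives in all. The intervals of the log2 changes of Vcam1 (-1.10 to -0.84) and Icam1 did not overlap.

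**Figure D2:**
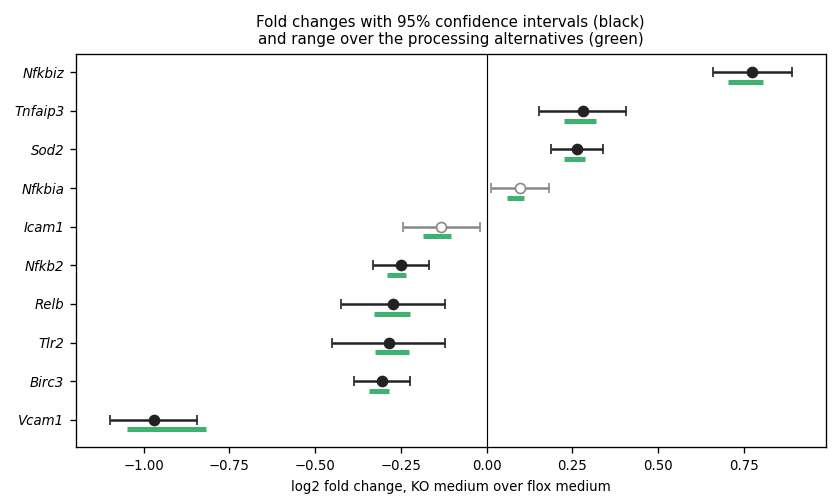
Log2 fold change of each gene, KO medium over flox medium (horizontal axis), with its 95% confidence interval in black (open grey symbols for the 2 genes that did not pass the test) and, in green, the range over the 20 processing alternatives. No green bar crosses 0, and those of Vcam1 and Nfkbiz lie far from all others.

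Summed markers of endothelial cells, macrophages, stellate cells, hepatocytes and cholangiocytes were lower with knockout medium, and those of adipocytes were higher. All 14 endothelial markers tested were called lower (median log2 -0.84), and their summed level was 2511 to 2679 CPM with flox medium and 1438 to 1519 CPM with knockout medium. Of the 14 macrophage markers 13 were lower and 1, Cd68, was higher (median log2 -0.73), with sums of 1032 to 1146 CPM with flox medium and 728 to 829.8 CPM with knockout medium. Of 12 stellate cell and fibroblast markers 11 were tested and 9 were lower, with sums of 98.1 to 109 CPM with flox medium and 54.3 to 62.0 CPM with knockout medium. The hepatocyte markers were the most abundant by far, and all 8 were also lower, with sums of 57066 to 60136 CPM with flox medium and 45937 to 48300.0 CPM with knockout medium (median log2 -0.39). Cholangiocyte markers were lower for 4 of 7 tested, with sums of 575 to 638 CPM with flox medium and 321 to 389 CPM with knockout medium. Sox9, Spp1, Cldn4 and Prom1 were the lower ones, and Krt7, Krt19 and Epcam were not called. The 8 neutrophil markers summed to 3.75 to 4.26 CPM with flox medium and 3.23 to 4.99 CPM with knockout medium, with Ly6g and Retnlg at 0, and the 8 lymphocyte markers to 0.620 to 1.19 CPM with flox medium and 0.526 to 1.33 CPM with knockout medium, with Cd3g and Nkg7 at 0. The adipocyte list summed to 159 to 179.6 CPM with flox medium and 222 to 244 CPM with knockout medium. Of its 8 genes only 3 were tested, 2 being called higher, Fabp4 and Cidec, and Pparg lower. Adipoq, Plin1, Lep, Retn and Cfd did not pass the filter, with Lep and Cfd at 0 in every library. Over the 20 alternatives 1 to 3 adipocyte genes were called higher, and this count moved under 5 of them. In bulk RNA, fewer cells of a type and less RNA per cell cannot be told apart, and the part of these shifts in the results was not tested.

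The levels were also set against the summed markers of the same library, again as a description. Icam1, Vcam1 and Tlr2 are known in several of these cell types. A ratio therefore does not assign a gene to the cell type whose markers it is set against. Vcam1 came to 2.46 ± 0.147 CPM per 100 CPM of summed endothelial markers in Mttp_flox_CM and 2.19 ± 0.276 in Mttp_KO_CM (SD, n = 5 each). Icam1 per 100 CPM of the same markers was 2.21 ± 0.163 in Mttp_flox_CM and 3.53 ± 0.380 in Mttp_KO_CM (SD, n = 5 each), and Birc3 was 2.77 ± 0.0834 in Mttp_flox_CM and 3.92 ± 0.176 in Mttp_KO_CM (SD, n = 5 each). Since Icam1 and Birc3 differed by less than the endothelial sum did, these ratios are higher with knockout medium by construction. Tlr2 per 100 CPM of summed macrophage markers was 1.23 ± 0.115 in Mttp_flox_CM and 1.40 ± 0.0920 in Mttp_KO_CM (SD, n = 5 each). Tlr2 likewise differed by less than the macrophage sum did, so this ratio too is higher by construction. Nfkbiz, Tnfaip3 and Sod2 rose where the endothelial, macrophage, stellate, cholangiocyte and hepatocyte sums were lower and the adipocyte sum was higher. Any link between these rises and the sums was not tested.

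**Figure D3:**
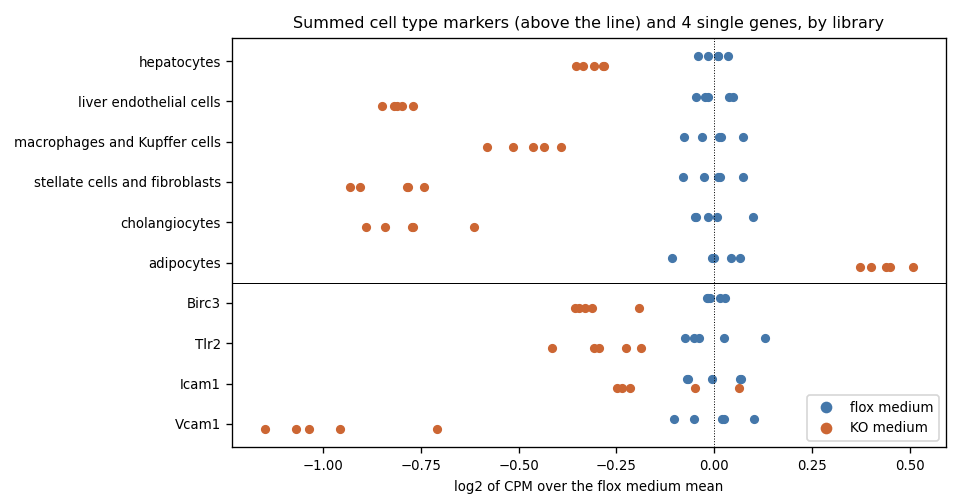
Log2 of each library's CPM over the flox medium mean (horizontal axis) for the summed markers of 6 cell types, above the line, and for Birc3, Tlr2, Icam1 and Vcam1, below it (points: 5 libraries a medium). In KO medium 4 of the 5 Vcam1 points lie below the endothelial sums and 1, replicate 3, above them, while Birc3, Tlr2 and Icam1 lie nearer to 0. The neutrophil and lymphocyte lists, with sums of at most 4.99 CPM, are left out.

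On the deposited FPKM scale, fragments scaled by gene length and by a constant for each library, Nfkbia was the highest of the 10 genes in both media. It was at 40.6 ± 2.02 FPKM in Mttp_flox_CM and 43.5 ± 1.01 in Mttp_KO_CM. Nfkb2 followed with 16.9 ± 0.760 FPKM in Mttp_flox_CM and 14.2 ± 0.348 in Mttp_KO_CM, then Birc3 with 14.2 ± 0.217 FPKM in Mttp_flox_CM and 11.5 ± 0.539 in Mttp_KO_CM and Icam1 with 13.0 ± 0.594 FPKM in Mttp_flox_CM and 11.9 ± 1.16 in Mttp_KO_CM. Sod2 stood at 10.7 ± 0.521 FPKM in Mttp_flox_CM and 12.8 ± 0.394 in Mttp_KO_CM. With flox medium these 5 genes were in this order in every library and no neighbours overlapped. With knockout medium Birc3, Icam1, Sod2 and Nfkbiz drew together, and Birc3 lay above Icam1 in 2 of 5 libraries, Icam1 above Sod2 in 1 of 5 and Sod2 above Nfkbiz in 1 of 5. Nfkbiz had been at 7.71 ± 0.503 FPKM in Mttp_flox_CM and 13.2 ± 1.13 in Mttp_KO_CM, and Vcam1 at 7.15 ± 0.389 FPKM in Mttp_flox_CM and 3.64 ± 0.445 in Mttp_KO_CM. Nfkbiz and Vcam1 were neighbours with flox medium, where Nfkbiz was the higher in 4 of 5 libraries, and were fully apart with knockout medium. Relb was at 5.74 ± 0.629 FPKM in Mttp_flox_CM and 4.75 ± 0.321 in Mttp_KO_CM, Tnfaip3 at 4.09 ± 0.193 FPKM in Mttp_flox_CM and 4.98 ± 0.533 in Mttp_KO_CM and Tlr2 at 4.39 ± 0.253 FPKM in Mttp_flox_CM and 3.61 ± 0.217 in Mttp_KO_CM. These 3 genes were the lowest with flox medium, whereas with knockout medium Vcam1 lay below Relb in 5 of 5 libraries, and its range overlapped that of Tlr2. Tlr2 lay above Tnfaip3 in every Mttp_flox_CM library and below it in every Mttp_KO_CM library. The order of genes on this scale rests on the gene lengths used, such as 1610 bases for Nfkbia and 10008 for Sod2. By CPM, which is not scaled by length, Sod2 was the highest of the 10 genes. Its mean was 108 CPM in Mttp_flox_CM and 129 in Mttp_KO_CM, where Nfkbia had 65.8 and 70.4 CPM.

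Within a group the libraries did not vary alike for all 10 genes. Deviations of log2 CPM from the group mean, taken over the 10 libraries, gave the highest correlation for Vcam1 and Birc3 (r = 0.83), which was 0.32 without Mttp_KO_CM replicate 3. For Icam1 it was 0.74 with Nfkbiz and 0.70 with Tnfaip3, and 0.45 and 0.48 without Mttp_KO_CM replicate 1. For Nfkb2 and Relb it was 0.73, and 0.44 without the unnumbered Mttp_flox_CM library. The lowest values were those of Tlr2 with Nfkbia (r = -0.74, and -0.53 without Mttp_flox_CM replicate 3) and with Birc3 (r = -0.64, and -0.28 without Mttp_KO_CM replicate 3). Single libraries thus carried much of each of these correlations. Mttp_KO_CM replicate 1 was the highest of its group for Nfkbia, Nfkbiz, Tnfaip3, Sod2 and Icam1, and replicate 3 was the highest for Birc3 and Vcam1. Among 10611 other genes with a mean of at least 5 CPM, the 3 that followed Icam1 most closely were Steap4 (r = 0.97), Hp (r = 0.95) and Cp (r = 0.95). For Nfkbia they were Adm (r = 0.96), Cyp4b1 (r = 0.93) and Dap3 (r = 0.91), for Nfkbiz Rnf8 (r = 0.96), Rad51d (r = 0.95) and Slc16a11 (r = 0.94) and for Tnfaip3 Rbpms (r = 0.92), Gchfr (r = 0.92) and Irf3 (r = 0.92). For Relb they were Sp100 (r = 0.94), Plbd1 (r = 0.93) and Hamp (r = 0.93) and for Nfkb2 Rras (r = 0.95), Ecd (r = 0.93) and Sharpin (r = 0.93). For Birc3 they were Bin1 (r = 0.93), Mad2l2 (r = 0.91) and Sult1e1 (r = 0.91), for Tlr2 Afdn (r = 0.95), Tmco4 (r = 0.94) and Tmem164 (r = 0.92), for Sod2 Rhod (r = 0.98), Pgp (r = 0.91) and Anapc7 (r = 0.91) and for Vcam1 Gnai3 (r = 0.96), Fam8a1 (r = 0.96) and Cnep1r1 (r = 0.94). With 1 library left out in turn, the lowest r of these 30 pairs was 0.64, for Birc3 and Sult1e1 without Mttp_KO_CM replicate 3. These are descriptions with no test, each the highest of a long list over 10 libraries that share their group means and depth.

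**Figure D4:**
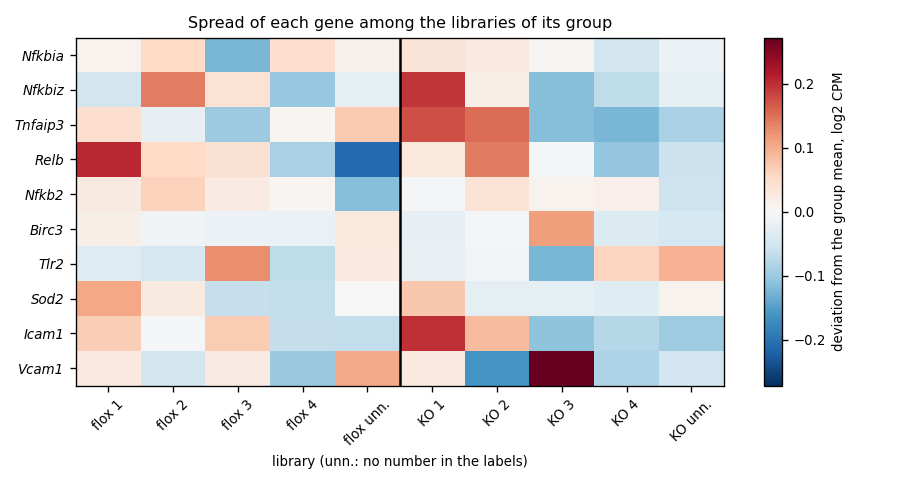
Deviation of each gene's log2 CPM from its group mean (colour, red above and blue below) in the 5 flox medium libraries, left of the line, and the 5 KO medium libraries, right of it. KO replicate 1 is red for Nfkbiz, Tnfaip3 and Icam1, and KO replicate 3 is red for Vcam1 and Birc3 and blue for Nfkbiz, Tnfaip3, Tlr2 and Icam1.

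Genes of the rest of the pathway were called in both directions, and nearly as many were not called. Of 127 other genes listed for NF-kB signalling, its targets, leukocyte adhesion and superoxide removal, 108 were tested, 26 were called higher (24.1%, against 18.2% of all genes tested), 29 lower (26.9%, against 18.1%) and 53 neither, and the median log2 change was 0.00. Shares of the lists below are to be read against the same 18.2% and 18.1%. They are descriptions, since the lists were chosen with earlier results of these data known. Among the IkB proteins and subunits 3 of 7 were lower (42.9%) and 0 higher. Nfkbie, the gene of IkB-epsilon, fell from 10.1 ± 1.70 to 6.39 ± 0.503 CPM (log2 change -0.66 with SE 0.12 and adjusted p = 7.2e-05 by edgeR), while Nfkbib, the gene of IkB-beta, was at 38.8 ± 0.469 CPM in Mttp_flox_CM and 39.4 ± 4.32 in Mttp_KO_CM (log2 change 0.02 with SE 0.058 and adjusted p = 0.81 by edgeR) and the nuclear IkB protein gene Bcl3 at 109 ± 4.54 CPM in Mttp_flox_CM and 103 ± 5.33 in Mttp_KO_CM (log2 change -0.09 with SE 0.040 and adjusted p = 0.097 by edgeR). Of 18 kinases and adaptors, 3 were higher (16.7%) and 1 lower (5.56%), neither above the share of all genes, and with library size alone 1 was higher and 2 lower. Irak2, a kinase of the interleukin 1 and Toll-like receptor pathway, rose from 41.0 ± 3.03 to 61.4 ± 1.62 CPM (log2 change 0.58 with SE 0.047 and adjusted p = 3.3e-10 by edgeR). Ikbkg, the gene of NEMO, rose slightly (log2 change 0.11 with SE 0.029 and adjusted p = 0.0053 by edgeR), though not with library size alone (log2 0.07).

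Of 13 other negative regulators tested 3 were higher (23.1%, near the 18.2% of all genes), 5 lower (38.5%, against 18.1%) and 5 neither. Zc3h12a, the RNase regnase-1, rose from 10.8 ± 0.662 to 17.9 ± 2.28 CPM (log2 change 0.73 with SE 0.087 and adjusted p = 2.8e-07 by edgeR), and Tnip1, an A20 partner, fell from 90.8 ± 3.40 to 75.4 ± 4.01 CPM (log2 change -0.27 with SE 0.041 and adjusted p = 1.0e-05 by edgeR). Of 15 receptors tested 2 were higher (13.3%) and 4 lower (26.7%). Il1r1, the interleukin 1 receptor, fell from 65.1 ± 3.07 to 52.6 ± 1.63 CPM (log2 change -0.31 with SE 0.042 and adjusted p = 2.4e-06 by edgeR), Tlr7, an endosomal sensor of RNA, went from 11.3 ± 0.984 to 6.55 ± 0.455 CPM (log2 -0.79), and Tnfrsf1a, the main TNF receptor, was at 152 ± 4.87 CPM in Mttp_flox_CM and 151 ± 8.55 in Mttp_KO_CM (log2 change 0.00 with SE 0.037 and adjusted p = 0.94 by edgeR). Most ligand genes were near absent. Tnf was at 0.450 ± 0.117 CPM in Mttp_flox_CM and 0.548 ± 0.150 in Mttp_KO_CM and Il1b at 0.0640 ± 0.0896 CPM in Mttp_flox_CM and 0.108 ± 0.108 in Mttp_KO_CM, both too low to be tested, and only 3 of 10 ligand genes were tested. Il1rn, which encodes the interleukin 1 receptor antagonist, fell from 27.4 ± 1.40 to 15.8 ± 1.36 CPM (log2 change -0.79 with SE 0.065 and adjusted p = 4.4e-10 by edgeR), and Tnfsf10, the gene of TRAIL, fell from 6.70 ± 1.47 to 1.92 ± 0.384 CPM (log2 -1.81).

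Among other NF-kB target genes 11 of 23 tested rose (47.8%, against 18.2% of all genes) and 4 fell (17.4%, against 18.1%; median log2 0.15). Ptgs2, the inducible cyclooxygenase, rose from 3.00 ± 0.758 to 15.2 ± 2.85 CPM (log2 change 2.33 with SE 0.15 and adjusted p = 3.1e-12 by edgeR). The neutrophil chemokine genes Cxcl1 and Cxcl2 rose from 83.2 ± 8.32 to 130.2 ± 9.47 CPM and from 6.43 ± 0.522 to 13.97 ± 2.24 CPM (log2 0.65 and 1.12). Adhesion molecules beyond Icam1 and Vcam1 were lower for 7 of 10 tested (70%, against 18.1% of all genes) and higher for 0, and Sele, F11r and Jam3 did not pass (median log2 -0.54). The endothelial markers, of which Pecam1 is one, were lower for 14 of 14 (median log2 -0.84), and their part in this was not tested. Pecam1, on endothelial junctions, fell from 282 ± 8.31 to 184 ± 6.16 CPM (log2 change -0.61 with SE 0.030 and adjusted p = 2.1e-14 by edgeR), Jam2 fell from 28.8 ± 1.49 to 15.2 ± 1.13 CPM and Icam2 from 5.20 ± 0.672 to 2.86 ± 0.518 CPM (log2 -0.92 and -0.86). P-selectin, Selp, fell from 18.8 ± 1.98 to 11.2 ± 1.28 CPM (log2 change -0.75 with SE 0.088 and adjusted p = 2.1e-07 by edgeR), and E-selectin, Sele, was at 2.23 ± 0.423 CPM in Mttp_flox_CM and 1.64 ± 0.216 in Mttp_KO_CM without passing (log2 change -0.44 with SE 0.20 and adjusted p = 0.088 by edgeR). Among the integrins that bind ICAM-1 or VCAM-1, 2 of 6 were lower (33.3%) and 0 higher. Itgal, the alpha chain of LFA-1, fell from 7.39 ± 0.497 to 4.98 ± 0.899 CPM (log2 -0.56) and Itga9 fell from 49.8 ± 4.39 to 28.9 ± 1.10 CPM (log2 -0.79). Itgb2, the beta chain of LFA-1, was at 39.5 ± 0.921 CPM in Mttp_flox_CM and 37.1 ± 2.95 in Mttp_KO_CM and Itga4, the alpha chain that meets VCAM-1, at 4.44 ± 1.06 CPM in Mttp_flox_CM and 4.47 ± 0.927 in Mttp_KO_CM, neither passing (adjusted p = 0.19 and 1). Enzymes that remove superoxide and peroxide rose for 7 of 13 (53.8%), with Sod3 the only gene called lower. Prdx1 rose from 1255 ± 30.2 to 1522 ± 43.5 CPM, Prdx6 from 560.4 ± 17.6 to 656 ± 32.0 CPM and Txn2 from 148 ± 3.13 to 173 ± 4.31 CPM (log2 0.28, 0.23 and 0.23). The same direction as Sod2 was thus shared by most called genes of that list, and the same direction as Vcam1 by every called adhesion molecule and integrin.

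**Figure D5:**
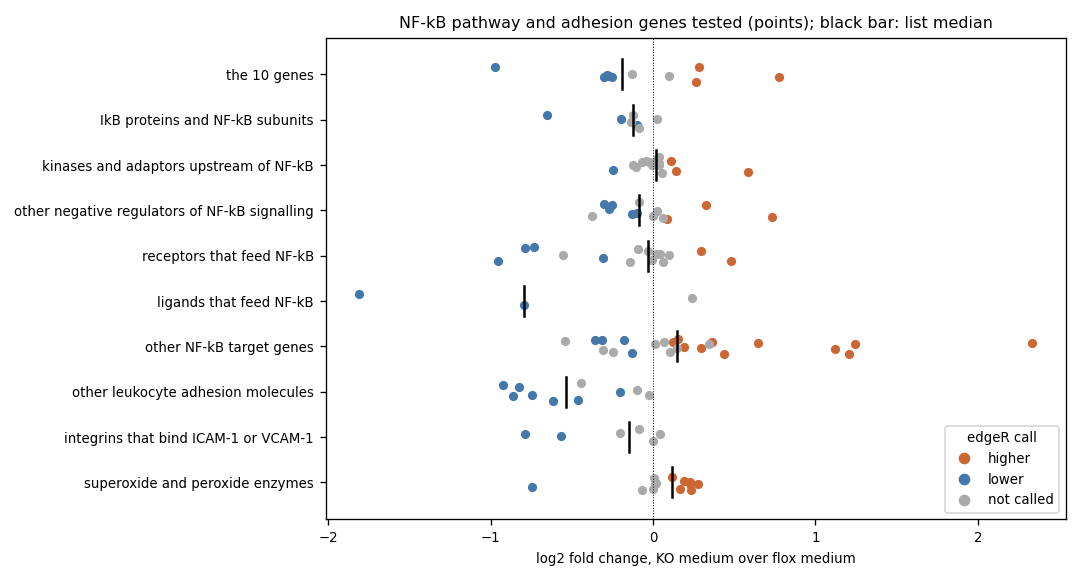
Log2 fold change of every tested gene in the set of 10 and in the 9 pathway lists (horizontal axis, points coloured by the edgeR call, black bar for the list median). Points above 1 occur in the list of other NF-kB target genes, and no adhesion or integrin gene is called higher.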

How the data were processed

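RNA of 10 cultured hepatocyte libraries was sequenced after poly-A selection, per the labels' protocols. The authors deposited raw counts per gene and FPKM values. Per the submitters' processing notes, HISAT2 2.0.5, featureCounts 1.5.0-p3 and build GRCm39 were used. The sources used here do not give the annotation or the strand setting. The deposited FPKM equalled the count per gene length and per 1 constant a library, and the summed counts were 0.980 to 0.984 of that constant in Mttp_flox_CM and 1.00 to 1.01 in Mttp_KO_CM. The column names of 8 libraries matched the labels; the other 2 (1 a group) bear a number found in no label and served as unnumbered replicates. All columns were used. No 2 libraries of a group agreed within sampling noise (chi-square per degree of freedom at least 2.04).

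Genes were kept by filterByExpr (minimum count 10, minimum total 15; 14183 of 56748 genes, 99.8% of counts), scaled by TMM and tested with glmQLFTest in edgeR 4.0.16 (R 4.3.3), group as the only term, with Benjamini-Hochberg adjustment over all genes and a threshold of 0.05. The scripts were tested on simulated data. The members and lists were chosen with earlier results of these data known. Every member was named, plus the 3 genes with the smallest p among the called genes of each pathway list and a set of partners, sister subunits and receptors; Tf was matched as Trf. The alternatives were DESeq2 1.42.0, limma 3.58.1, other scalings and filters, log2 of FPKM plus 1 or 0.1, a replicate block, no unnumbered libraries, and leaving out each library.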

Additional observations from a re-analysis of the deposited data

Results flagged for a closer look

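A gap test within each group of 5 (Dixon's test, critical value 0.71) was run on 116 sets of values, of which chance alone would flag about 1 in 20, and 4 had a library apart. Nfkbia was low in Mttp_flox_CM replicate 3, at 60.3 CPM where the others ran from 66.1 to 68.3, and its log2 change was 0.06 without that library. Birc3 was high in Mttp_KO_CM replicate 3, at 62.7 CPM where the others ran from 56.0 to 57.7. Sod3 was high in Mttp_flox_CM replicate 3, at 3.04 CPM against 1.16 to 1.55, and its call was lost without it. Tlr4 was high in Mttp_flox_CM replicate 4, at 26.6 CPM against 19.5 to 21.0.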

How the results depend on the processing

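Of the 10 genes, 8 kept their direction and their side of the threshold under all 20 alternatives. Nfkbia passed on log2 of FPKM plus 1 or plus 0.1 (log2 0.10 in both, limma adjusted p = 0.043), and Icam1 passed with library size alone, with no filter and without any 1 of Mttp_flox_CM replicate 4, the unnumbered Mttp_flox_CM library, Mttp_KO_CM replicate 1 or Mttp_KO_CM replicate 2; its adjusted p ran from 0.005 to 0.16, and the cause was not tested. The log2 change of Vcam1 ran from -1.05 to -0.82 and that of Nfkbiz from 0.70 to 0.81. Over the 20 alternatives 3 to 4 of the 10 genes were higher and 5 to 6 lower, and of the other pathway genes 23 to 27 were higher and 27 to 33 lower. Of 40 other named genes tested 8 changed their call under at least 1 alternative, among them Rela, Ikbkg, Map3k14 and Sod3. With replicate number as a replicate block, on the 8 numbered libraries, 3 of the 10 genes were higher and 5 lower, and Map3k14 was the named pathway gene whose call was lost (log2 -0.24). Same-numbered libraries gave r = 0.01, -0.01, 0.02 and 0.14 for numbers 1 to 4 over 10612 genes. Pairs that do not share a number ran from -0.12 to 0.15, so number 4 lay near the top of that range and the others well inside it. The numbers were therefore not taken to pair samples. Depth limits Tnf, Il1b and the other untested ligand genes, whose counts were near 0. The 20 alternatives were planned; the correlations with a library left out were added after seeing the data.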
